A study of Mus musculus with 26 samples.

Results

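Open chromatin was examined around the 3 Myc family genes (Myc, Mycn and Mycl) and the Lin28 pair (Lin28a and Lin28b) in mouse pluripotent stem cells held at successive stages. These 5 genes, of 21887 protein-coding genes in the gene table, were chosen by name and not by their values. Every ATAC-seq peak that overlapped the GRCm38 span of a gene, or the 50 kb on either side of it, was taken from all 26 deposited peak lists. This gave 349 peaks of 451563. Merging the peaks that overlapped or touched across the 26 lists gave 38 regions in the windows, of 75600 regions in all. A region was called a gene end when it lay within 1 kb of either end of a protein-coding gene, and distal otherwise. By this rule 14 of the 38 regions were gene ends and 24 were distal.

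ATAC-seq marks accessible DNA by the insertion of sequencing adapters with the Tn5 transposase, here in 50,000 cells per library. The first set of libraries held 6 groups of 3 libraries each. FS1 at passage 21 and FS2 at passage 29 were formative stem cells grown in the medium labelled A3XR. EpiSC_AF (passage 22) were epiblast stem cells grown in AF, while EpiSC_AFX1 (passage 14) and EpiSC_AFX2 (passage 16) were epiblast stem cells grown in AFX. ES were embryonic stem cells grown in 2iL at passage 16. A second set, labelled Rd2, held 2 libraries of embryonic stem cells in 2iL at passage 33 (Rd2_ES), 2 of epiblast stem cells in AFX at passage 16 (Rd2_AFX), and 4 of epiblast-like cells (Rd2_EpiLC). The last were ES cells induced for 2 days in AF with KSR, from which the GFP-low cells were sorted. The source labels of the second set read Rd2GFP for Rd2_ES, Rd2EpiLC for Rd2_EpiLC and Rd2AFX for Rd2_AFX. They do not say whether Rd2 or GFP names a cell line, so the sets may differ in the line used. Apart from these labels, no genotype or strain was given for any of the groups. The labels do not say that the libraries of a group came from separate cultures, so the p-values measure only the spread between these libraries, which may be technical.

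The Myc genes encode transcription factors that pair with MAX, bind E-box sequences and drive growth, ribosome production and proliferation. Early mouse embryonic cells use Myc and Mycn together, and Mycl is the least studied of the family. Lin28a and Lin28b encode RNA-binding proteins that bind precursors of the let-7 microRNAs and block their maturation, and they are known to rise as naive cells move towards later pluripotency. Mature let-7 in turn represses Lin28 and Myc family messages.

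The sequences upstream of the genes are shown because peaks at the starts of Mycn, Mycl and Lin28a, described below, lie over or near them. At Lin28b only 1 library had a peak within 1 kb of the start given by the RefSeq promoter entry. That start lies 16.1 kb inside the gene span, and 22 of 26 libraries had a peak at the 5′ end of the span. RefSeq promoter entries (GRCm38.p6) matched 4 of the 5 genes, all but Myc. Each line gives the 250 bases before the start, 5′ to 3′ on the gene's own strand. They lie at chr12:12941837-12942086 (minus strand) for Mycn, chr4:122995681-122995930 (plus) for Mycl, chr4:134018817-134019066 (minus) for Lin28a and chr10:45470202-45470451 (minus) for Lin28b. Capitals mark the matches, on either strand, to 5 motifs: the E-box CACGTG, the TATA box TATAAA, the GC box GGGCGG, the CCAAT box CCAAT and the octamer ATGCAAAT.
Mycn promoter: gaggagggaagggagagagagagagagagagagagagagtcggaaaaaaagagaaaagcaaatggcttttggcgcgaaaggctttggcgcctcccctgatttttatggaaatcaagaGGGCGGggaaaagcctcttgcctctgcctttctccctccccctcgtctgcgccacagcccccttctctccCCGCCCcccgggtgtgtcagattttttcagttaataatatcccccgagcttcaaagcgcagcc
Mycl promoter: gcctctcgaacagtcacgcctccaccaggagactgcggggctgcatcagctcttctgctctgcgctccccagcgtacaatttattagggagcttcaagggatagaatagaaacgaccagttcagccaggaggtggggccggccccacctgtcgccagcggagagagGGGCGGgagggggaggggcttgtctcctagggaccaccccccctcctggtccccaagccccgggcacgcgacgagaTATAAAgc
Lin28a promoter: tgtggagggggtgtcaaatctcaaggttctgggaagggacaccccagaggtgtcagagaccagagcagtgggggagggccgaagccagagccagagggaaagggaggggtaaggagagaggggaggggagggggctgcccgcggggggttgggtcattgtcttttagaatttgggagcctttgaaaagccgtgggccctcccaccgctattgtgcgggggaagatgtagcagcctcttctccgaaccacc
Lin28b promoter: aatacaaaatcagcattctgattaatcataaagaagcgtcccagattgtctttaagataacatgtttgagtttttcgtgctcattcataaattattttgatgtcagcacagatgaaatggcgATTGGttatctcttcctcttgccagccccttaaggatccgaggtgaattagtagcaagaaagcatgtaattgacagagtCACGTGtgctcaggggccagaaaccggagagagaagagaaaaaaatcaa
GC boxes stood 133 and 63 bases before the start in Mycn, the second as its reverse complement. Mycl held a GC box at 84 bases and a TATA box at 8 bases before the start. Lin28b held an E-box at 49 bases and a reversed CCAAT box at 128 bases before the start. No match to these letters was found in the Lin28a sequence. Of 32851 promoters of the same length, 6.02% held the E-box, 12.4% the TATA box, 32.7% the GC box, 33.8% the CCAAT box and 1.6% the octamer. GC content was 54.8% in Mycn, 63.6% in Mycl, 61.2% in Lin28a and 39.2% in Lin28b, against a median of 52.4%. The sequence before the inner Lin28b start was thus the AT-rich one, with 10.3% of promoters lower in GC. A match is a string of letters and not a measured site.

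The microRNAs that LIN28 acts on are shown because their loci were measured in the same lists. Each line gives a mature 5p sequence from RefSeq, with the seed (bases 2 to 8) in capitals.
mmu-let-7a-5p: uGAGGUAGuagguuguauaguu
mmu-let-7b-5p: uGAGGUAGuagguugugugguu
mmu-let-7c-5p: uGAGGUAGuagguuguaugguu
mmu-let-7d-5p: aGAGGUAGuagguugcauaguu
mmu-let-7e-5p: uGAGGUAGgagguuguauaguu
mmu-let-7f-5p: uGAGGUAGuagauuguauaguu
mmu-let-7g-5p: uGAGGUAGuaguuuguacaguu
mmu-let-7i-5p: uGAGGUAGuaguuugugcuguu
All 8 sequences shared 1 seed, and they came from 11 loci.

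Around the Myc family and Lin28 genes the ES libraries held the fewest peaks of the first set, 11 in all against 21 to 69 in the other groups as deposited. In these unequal lists, ES peaks (3 libraries) occurred in 6 of the 38 regions, FS peaks (6 libraries) in 30 and EpiSC_AFX peaks (6 libraries) in 29. No region had a peak in ES and none in both FS and EpiSC_AFX. Mycl had the most regions (11), followed by Lin28a (10), Myc and Mycn (6 each) and Lin28b (5). In 8 regions the peak came from 1 library of the 26. A library pools many cells, so fewer cells with an open site and less opening per cell cannot be told apart.

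List length has to be read beside these counts. The ES lists held 8044 to 10961 peaks, the FS2 lists 11796 to 14147, and the other first-set lists 15505 to 31263. Read depth was unknown, and whether list length reflects depth or signal over background was not tested. The first-set lists were therefore also compared at equal length, using the 8044 peaks with the highest −log10 p of each list. At equal length 20 of the 38 regions still had a peak in some library. ES peaks (3 libraries) then occurred in 6 regions, FS peaks (6 libraries) in 7 and EpiSC_AFX peaks (6 libraries) in 19. The numbers of libraries differ, so these counts do not compare ES and FS alike. By groups of 3 libraries, the windows held 8 peaks in ES, 17 in FS1 and 10 in FS2 at equal length. The epiblast stem cell groups held 20 to 22. The Rd2 lists were made with another peak tag and minimum peak length, and the Rd2_ES lists held only 471 and 2576 peaks, so that set was kept apart. Peaks near naive marker genes (11 genes, 20 kb on each side, equal length) summed to 9 to 11 in ES and 2 to 7 in the other first-set libraries. Formative markers (8 of 9 names matched) summed to 0 to 3 in ES, 4 to 8 in FS and 8 to 11 in the epiblast stem cells, and primed markers (9 genes) to 2 to 4 in ES and FS and 4 to 8 in the epiblast stem cells. Feeder fibroblast markers (7 genes) and extraembryonic endoderm markers (5 genes) each summed to 2 to 6 at equal length. At that length Col1a2, Twist2 and Sox7 were at 0 in every first-set library, and every other marker of these lists had a peak in some library. As deposited, no feeder marker was without a peak in FS1 or in EpiSC_AFX1, and Sox7 was without one only in ES among the first-set groups. The part of such cells in the results was not tested.

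**Figure D1:**
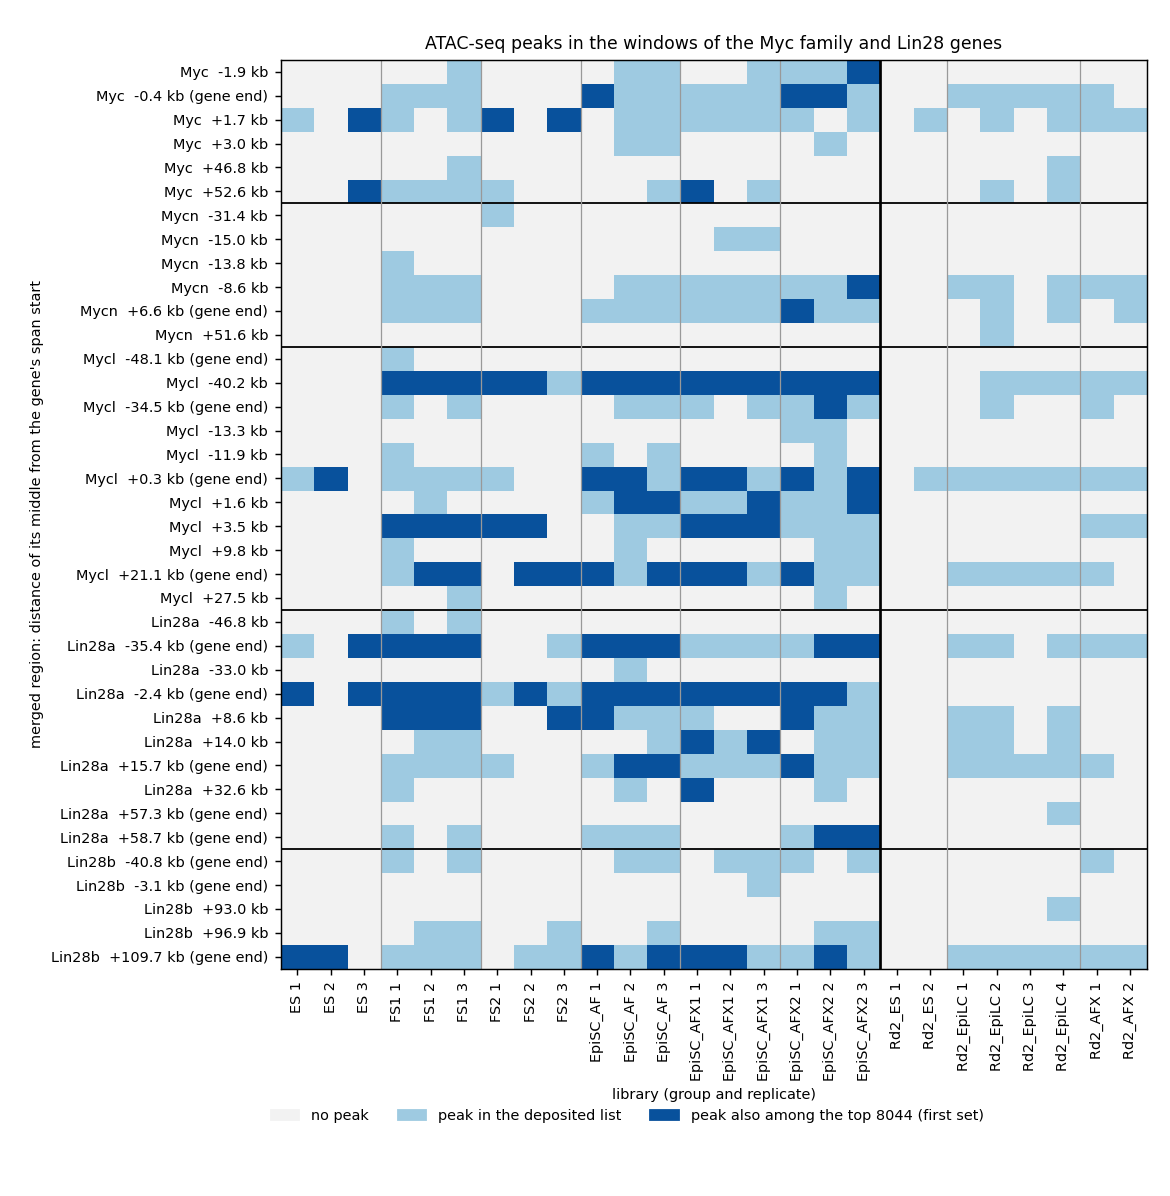
Each row is a merged region, named by its gene and the distance in kb of its middle from the lowest coordinate of the gene's span, and each column is a library; the shades mark no peak, a peak in the deposited list, and a peak also among the 8044 highest of a first-set list. The ES columns are nearly empty, with peaks in 6 of the 38 regions, and the region at −40.2 kb of Mycl is filled in all FS and epiblast stem cell columns of the first set.

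Myc, the best-known member and a regulator of growth in most tissues, spans chr15:61985341-61990361 and had 6 regions, of which 1 was a gene end. The region at its span start, chr15:61984251-61985715, held a peak in 3 of 3 FS1, EpiSC_AF, EpiSC_AFX1 and EpiSC_AFX2 libraries. It held none in the 3 FS2 and the 3 ES libraries. Few of these peaks were among the strongest of their lists, and at equal length the region kept 1 of 3 EpiSC_AF and 2 of 3 EpiSC_AFX2 libraries and no other. A second region inside the gene, chr15:61986783-61987383, was present in every group, in 2 of 3 FS1, FS2, EpiSC_AF, EpiSC_AFX2 and ES libraries and in 3 of 3 EpiSC_AFX1 libraries. At equal length this internal region stayed in 2 FS2 libraries and 1 ES library. The farthest region, chr15:62037475-62038445, lies at an end of Pvt1, a long non-coding RNA gene beside Myc, and had a peak in 3 FS1, 1 FS2, 1 EpiSC_AF, 2 EpiSC_AFX1 and 1 ES libraries.

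Per library, the Myc window held 1, 0 and 2 peaks in ES and 3, 2 and 5 in FS1 as deposited. FS2 held 2, 0 and 1, EpiSC_AFX1 held 3, 2 and 4, and EpiSC_AFX2 held 4, 3 and 3. ES and FS2 were thus alike and low on this scale, and the ES and EpiSC_AFX ranges met at 2. At equal length the order was lost: ES held 0, 0 and 2 peaks, FS1 none, FS2 1, 0 and 1, EpiSC_AFX1 1, 0 and 0, and EpiSC_AFX2 1 in each. The mean of ES minus that of FS was 0.333 peaks (exact two-sided permutation test over libraries p = 0.643, adjusted p = 0.974 over 17769 genes). The mean of ES equalled that of EpiSC_AFX (difference 0, exact permutation p = 1). Chromosome 15, which carries Myc, took 5.65% to 5.78% of the peaks of the FS2 lists as deposited, against 4.41% to 4.51% in FS1 and 3.36% to 3.53% in ES. Its part in the FS2 counts at Myc was not tested.

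Mycn, which is prominent in embryonic and neural progenitor cells, spans chr12:12936093-12941836 on the minus strand and had 6 regions. Peaks at its start, chr12:12941736-12943709, occurred in 3 of 3 libraries of FS1, EpiSC_AF, EpiSC_AFX1 and EpiSC_AFX2 and in none of FS2 or ES. This region covers the upstream bases printed above. A distal region beyond the far end of the gene, chr12:12927118-12927779, followed almost the same pattern, with 3 FS1, 2 EpiSC_AF, 3 EpiSC_AFX1 and 3 EpiSC_AFX2 libraries and no FS2 or ES library. Both were weak in their lists: at equal length each had a peak in 1 EpiSC_AFX2 library only. As deposited, the Mycn window held 0 peaks in each ES library, 3, 3 and 2 in FS1, 1, 0 and 0 in FS2, 1, 3 and 2 in EpiSC_AF, 2, 4 and 3 in EpiSC_AFX1 and 3 in each EpiSC_AFX2 library. Every EpiSC_AFX library thus stood above every ES library, as did those of 42.3% of all genes on these unequal lists. At equal length all 9 ES and FS libraries were at 0, so that comparison has no test. ES minus EpiSC_AFX was −0.333 peaks at equal length (exact permutation p = 0.5, adjusted p = 0.807 over 17505 genes).

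Mycl had the largest difference of the 5 genes between ES and the later stages at equal length. The gene spans chr4:122995588-123002490 on the plus strand, between Mfsd2a, a lipid transporter gene, and Trit1, a tRNA-modifying enzyme gene. At equal length its window held 0, 1 and 0 peaks in the ES libraries. FS1 held 2, 3 and 3, FS2 held 2, 3 and 1, and EpiSC_AF held 3 in each. EpiSC_AFX1 held 4, 4 and 3, and EpiSC_AFX2 held 3, 2 and 3. Every EpiSC_AFX library lay above every ES library, a separation in this direction that 7.06% of the genes tested also showed. The mean was 0.333 ± 0.577 (SD, n = 3) in ES and 3.17 ± 0.753 (SD, n = 6) in EpiSC_AFX, a difference of −2.83 peaks. By the exact two-sided permutation test p was 0.0119, the smallest that 84 assignments of the libraries can give, and 0.138 after Benjamini-Hochberg adjustment over 17505 genes. A difference as low was seen in 1.73% of those genes. It was smaller with peaks ranked by fold enrichment (−1.5, exact permutation p = 0.0714) and with 20 kb on each side, which leaves out the Mfsd2a region (−1.67, exact permutation p = 0.0833). ES minus FS was −2 peaks, with a shared value of 1 between the ranges (exact permutation p = 0.0357, adjusted p = 0.356), and 4.37% of genes were as low. With 20 kb on each side it was −1.17. FS minus EpiSC_AFX was −0.833 peaks with overlapping libraries (exact permutation p = 0.188, adjusted p = 1). At the length of the shortest list other than ES, 11796 peaks, it was −1.67 (exact permutation p = 0.0238, adjusted p = 1). This setting was added after seeing the data.

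No gene passed the adjusted threshold of 0.05 in the 3 comparisons at equal length (0% of genes called). Unadjusted, the exact permutation test was under 0.05 for 2086 genes (11.7%) in ES against FS, 2545 (14.5%) in ES against EpiSC_AFX and 472 (2.78%) in FS against EpiSC_AFX. The lowest adjusted values were 0.19, 0.138 and 0.92. On the deposited lists ES held fewer peaks than EpiSC_AFX at Mycl (−6.17), Lin28a (−4.33) and Mycn (−3), each with an adjusted p of 0.0324 by the exact permutation test. That threshold was passed by 36.7% of 20114 genes, nearly all of them lower in the shorter ES lists, and the median over all genes was −1.67. Myc (−2.17, adjusted p = 0.0548) and Lin28b (−1.5, adjusted p = 0.124) did not pass the same exact permutation test.

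**Figure D2:**
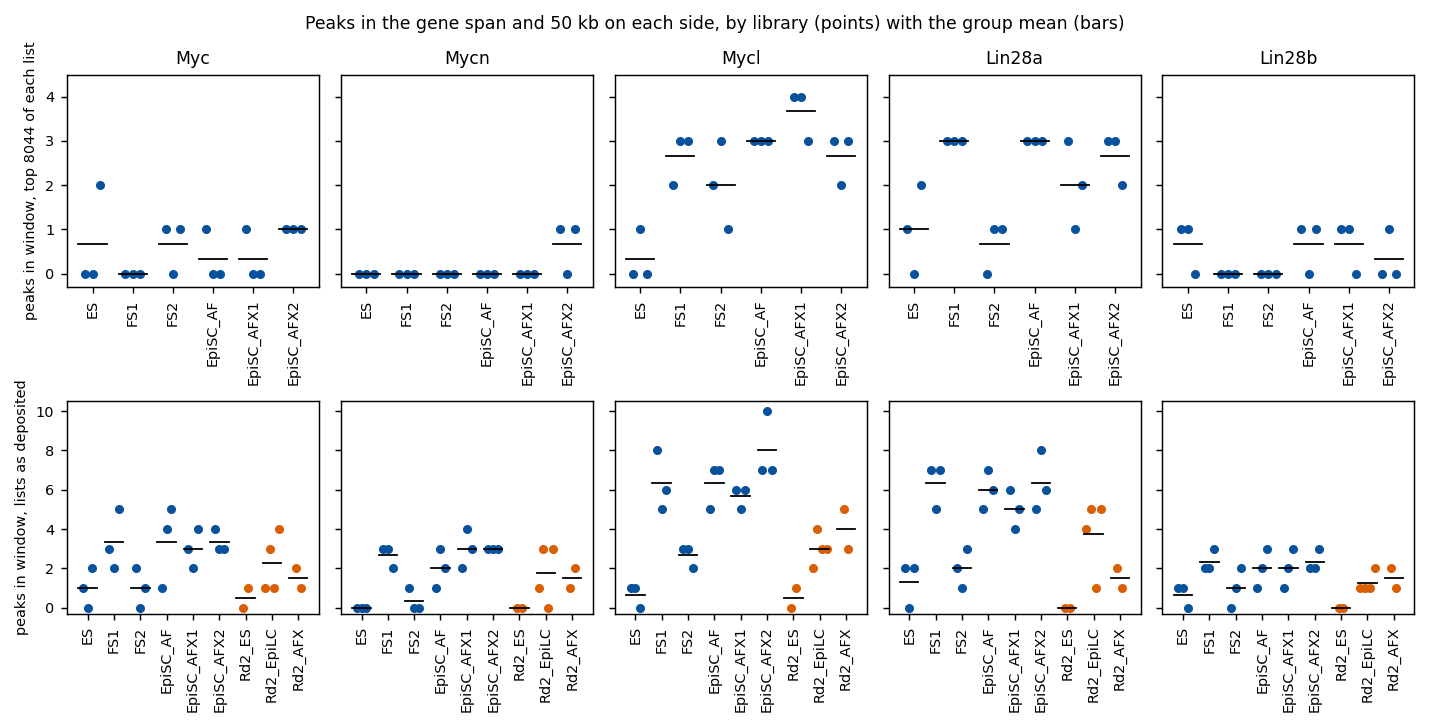
Points are libraries, bars are group means, and the vertical axes give the number of peaks in the gene span and 50 kb on each side, in the 8044 highest peaks of each first-set list (upper row) and in the lists as deposited (lower row, Rd2 libraries in orange). For Mycl the ES libraries lie at 0 to 1 in the upper row and the EpiSC_AFX libraries at 2 to 4, while for Mycn and Lin28b all points of the upper row lie at 0 or 1.

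Of the 11 Mycl regions, the one most widely shared by the later stages lay 39.8 kb before the span, inside Mfsd2a, at chr4:122955046-122955764. It was distal by the rule used and was held by 15 of 15 FS and epiblast stem cell libraries of the first set and by no ES library, as deposited. At equal length it stayed in 3 FS1, 2 FS2, 3 EpiSC_AF and 6 EpiSC_AFX libraries. Its peak ranked from 1793 to 6762 by −log10 p in those libraries, while in FS2 replicate 3 it ranked 8497, just outside the 8044 peaks kept. It was the only region in the 5 windows held by every EpiSC_AFX library and no ES library at equal length, which 2.6% of 20477 regions were. As deposited, 8 of the 29 regions with a peak in ES or EpiSC_AFX libraries were held in this way, against 8.23% of all regions. They were 4 at Mycl, 2 at Mycn and 1 each at Myc and Lin28a, and they included the starts of Myc, Mycn and Lin28a but not that of Mycl. Against ES, the Mfsd2a region was also the only one in the windows held by every FS library as deposited (2.91% of all regions), and no region was held in that way at equal length (1.71%). No region in the windows was held by ES only against either type, where the background at equal length was 2.13% against FS and 2.75% against EpiSC_AFX. Between FS and EpiSC_AFX no region in the windows was held by 1 type only, with backgrounds of 0.128% for FS and 0.0535% for EpiSC_AFX. At equal length Fisher's exact test called no region of any window or of the whole set after adjustment, with 1464 (ES against FS), 1672 (ES against EpiSC_AFX) and 155 (FS against EpiSC_AFX) regions under 0.05 unadjusted, of which 2, 1 and 0 lay in the windows. As deposited it called none either, with 3573, 7368 and 420 under 0.05 unadjusted, of which 3, 10 and 1 lay in the windows.

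The start region of Mycl, chr4:122995398-122996423, was the one ES shared: it had a peak in 2 ES libraries, 3 FS1, 1 FS2 and all 9 epiblast stem cell libraries. At equal length this start stayed in 1 ES library and 6 epiblast stem cell libraries and in no FS library. A region in the gene body, chr4:122998582-122999554, had a peak in 5 of 6 FS, 2 EpiSC_AF, 3 EpiSC_AFX1 and 3 EpiSC_AFX2 libraries and in no ES library as deposited. At equal length it stayed in 5 FS and 3 EpiSC_AFX1 libraries. Between them, chr4:122996948-122997373 was seen in 1 FS1 library, no FS2 or ES library and all 9 epiblast stem cell libraries as deposited. The Trit1 end, chr4:123016365-123016926, had a peak in 5 FS and 9 epiblast stem cell libraries and in no ES library. The other 6 Mycl regions occurred in 1 to 9 first-set libraries and in no ES library.

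**Figure D3:**
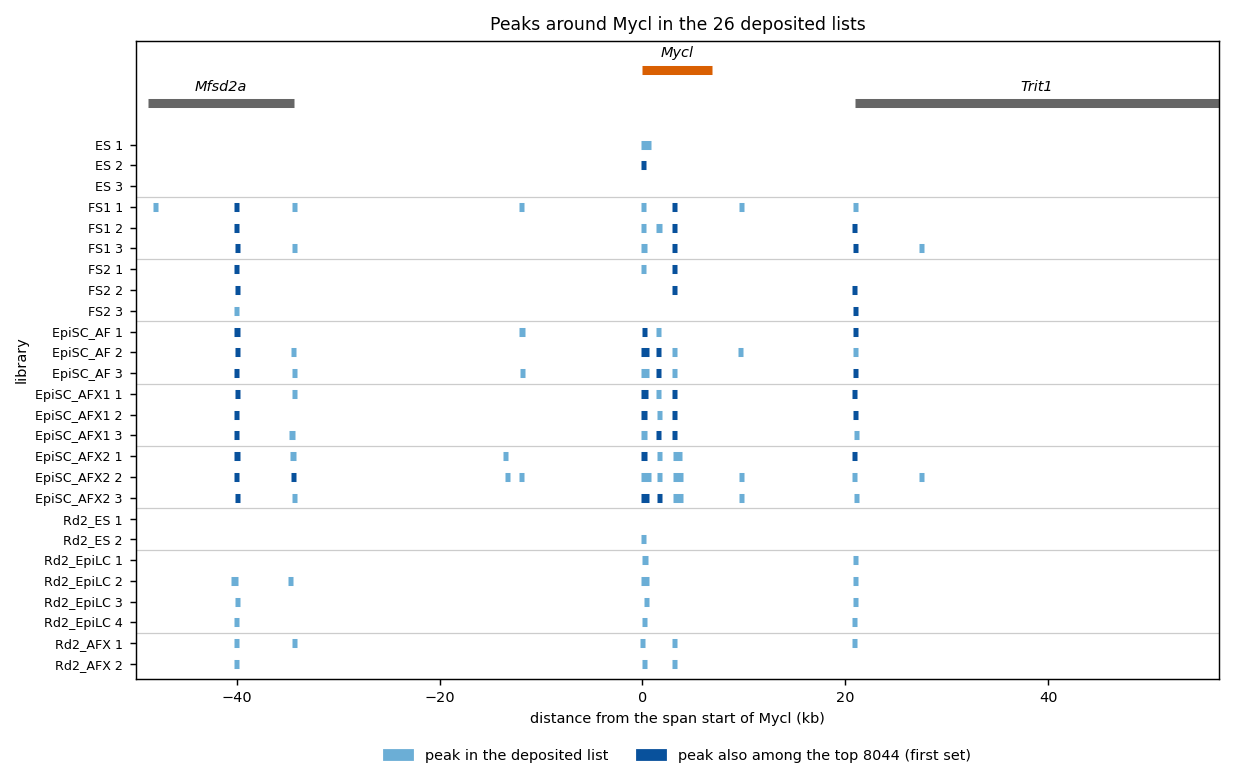
Peaks of each library (one line per library) are drawn by their distance in kb from the lowest coordinate of Mycl, with the genes of the window on top; dark bars mark peaks among the 8044 highest of a first-set list, and bars are drawn at least 0.5 kb wide. The column of dark bars at −40.2 kb inside Mfsd2a has no ES peak, and ES peaks appear only at the Mycl start.

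Lin28a, also used as a reprogramming factor, spans chr4:134003330-134019196 on the minus strand and had 10 regions, 5 of them gene ends. The start region, chr4:134018621-134019513, contains the printed upstream bases and held a peak in 3 FS1, 1 FS2, 3 EpiSC_AF, 3 EpiSC_AFX1 and 3 EpiSC_AFX2 libraries as deposited, and in no ES library. Only 2 EpiSC_AF libraries and 1 EpiSC_AFX2 library kept it at equal length. An internal region, chr4:134011383-134012451, had a peak in 3 of 3 FS1, EpiSC_AF and EpiSC_AFX2 libraries, 1 FS2 and 1 EpiSC_AFX1 library and no ES library as deposited. At equal length it stayed in 3 FS1 libraries and in 1 each of FS2, EpiSC_AF and EpiSC_AFX2. A further internal region, chr4:134016788-134017883, was among the strongest peaks in 2 EpiSC_AFX1 libraries only.

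Where ES had peaks in the Lin28a window, these lay at neighbouring genes. The region 2.2 kb past the gene, chr4:134000707-134001132, lies at an end of Dhdds, which encodes a dolichol-synthesis enzyme, and was held by 2 of 3 ES libraries and all 15 other first-set libraries. At equal length it stayed in 2 ES, 3 FS1, 1 FS2, 3 EpiSC_AF and 5 EpiSC_AFX libraries. The other, chr4:133967138-133968811, lies at the facing ends of Hmgn2, a nucleosome-binding protein gene, and Dhdds, and had a peak in 2 ES, 3 FS1, 1 FS2, 3 EpiSC_AF and 6 EpiSC_AFX libraries. The region at the Crybg2 end, chr4:134061651-134062393, was seen in 2 FS1, 3 EpiSC_AF and 3 EpiSC_AFX2 libraries and in no FS2, EpiSC_AFX1 or ES library.

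FS1 and FS2 stood apart at Lin28a. Equal-length lists gave 3 peaks in each FS1 library and 0, 1 and 1 in FS2, and 3.93% of 16241 genes had every FS1 library above every FS2 library. EpiSC_AF held 3 in each library, EpiSC_AFX1 held 3, 1 and 2, and EpiSC_AFX2 held 3, 3 and 2. ES held 1, 0 and 2, a range that overlapped those of FS2, EpiSC_AFX1 and EpiSC_AFX2. Over all FS libraries, ES minus FS was −0.833 peaks (exact permutation p = 0.393, adjusted p = 0.855). It was −0.333 without ES replicate 2, −1.33 without ES replicate 3 and −2 with FS1 alone. Against EpiSC_AFX the ES mean differed by −1.33 peaks (exact permutation p = 0.0952, adjusted p = 0.385). FS minus EpiSC_AFX was −0.5 peaks (exact permutation p = 0.6, adjusted p = 1), and 0.667 with the FS1 libraries alone, an alternative chosen after seeing the data.

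**Figure D4:**
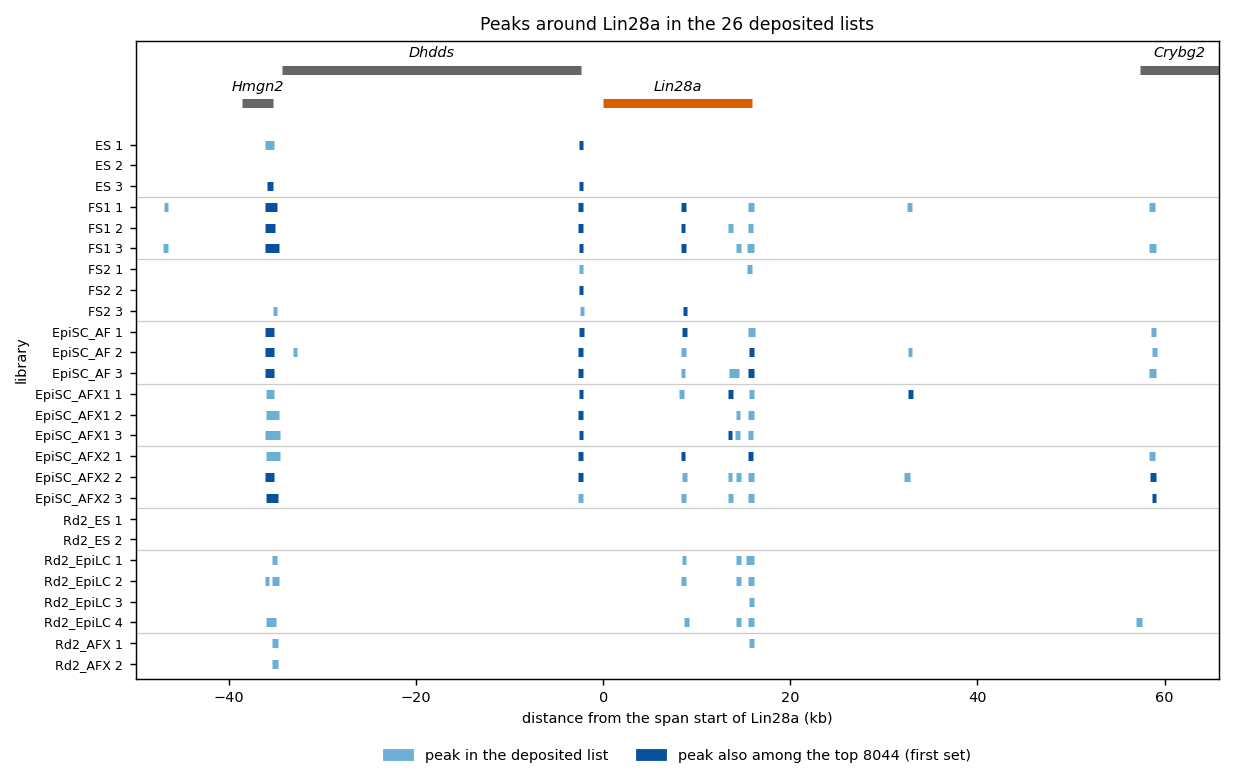
Peaks of each library are drawn by their distance in kb from the lowest coordinate of Lin28a, whose start lies at the right end of its span, with dark bars for peaks among the 8044 highest of a first-set list and bars at least 0.5 kb wide. ES peaks lie only at the ends of Dhdds and Hmgn2, and the dark column at +8.6 kb inside Lin28a is complete in FS1 alone.

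Lin28b, the second let-7 inhibitor, spans 110 kb at chr10:45376617-45486314 on the minus strand and had 5 regions. The start given by the promoter table, at 45470201, lies 16.1 kb inside that span. Only 1 library of 26, Rd2_EpiLC replicate 4, had a peak within 1 kb of that start, at chr10:45469368-45469936. A region farther upstream in the span, chr10:45473171-45473920, had a peak in 2 FS1, 1 FS2, 1 EpiSC_AF and 2 EpiSC_AFX2 libraries and in no ES library. The outer end of the span, chr10:45485652-45486933, is the 5′ end of the span on the minus strand. It was the main accessible region, with peaks in 2 ES, 3 FS1, 2 FS2 and all 9 epiblast stem cell libraries. At equal length it was the only Lin28b region left, in 2 ES, 2 EpiSC_AF, 2 EpiSC_AFX1 and 1 EpiSC_AFX2 libraries and no FS library. The window therefore held 1, 1 and 0 peaks in ES and 0 in all 6 FS libraries at equal length. ES minus FS was 0.667 peaks (exact permutation p = 0.0833, adjusted p = 0.413), the ES mean less that of EpiSC_AFX came to 0.167 (exact permutation test, p = 1) and the FS mean less that of EpiSC_AFX to −0.5 (p = 0.182 by the same exact test, 1 after adjustment). The direction against FS depended on list length: as deposited, ES held 1, 1 and 0, FS1 held 2, 2 and 3 and FS2 held 0, 1 and 2, a difference of −1. At an end of Bves, a membrane protein gene expressed in muscle, chr10:45335456-45336153 had a peak in 2 libraries each of FS1, EpiSC_AF, EpiSC_AFX1 and EpiSC_AFX2 and in none of FS2 or ES.

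**Figure D5:**
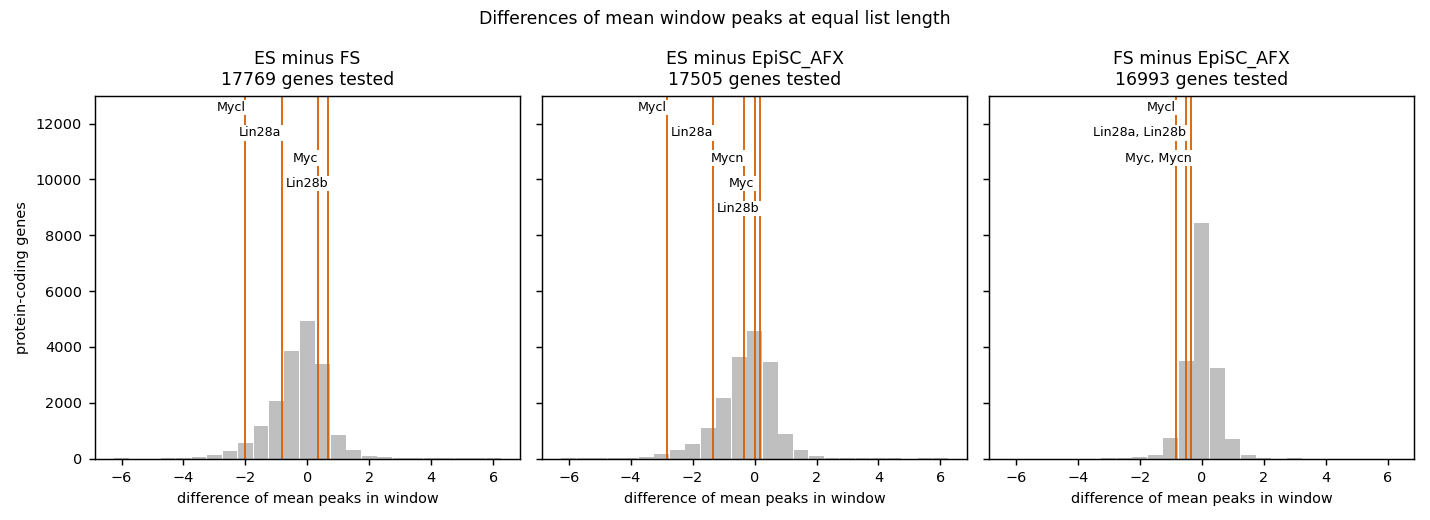
Grey bars count all protein-coding genes tested by their difference of mean window peaks at equal list length in 3 comparisons, with values beyond ±6 placed in the outer bars, and orange lines mark the members; Mycn has no line for ES minus FS, where all its counts are 0. Mycl lies farthest to the left of the members in each panel, at −2, −2.83 and −0.833 peaks, and the other members lie between −1.33 and 0.667.

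As deposited, 8 of 11 ES peaks in the 5 windows lay at gene ends (72.7%), against 44.9% to 51.8% in the other first-set groups. Over the whole deposited lists the share was 45.3% to 50.2% in ES, 35.7% to 42.9% in FS1, 51.8% to 53.5% in FS2 and 37.3% to 53.6% in the epiblast stem cell groups. At equal length the shares were 75% in ES, 71.4% in EpiSC_AF, 59.1% in EpiSC_AFX2, 47.1% in FS1, 45% in EpiSC_AFX1 and 30% in FS2. Each of these rests on 8 to 22 peaks, which share libraries and regions, so no test was made. Over the whole equal-length lists the share was 48.8% to 50.2% in ES and 54% to 62.3% in the other groups, so ES, highest of the groups in the windows, was lowest over the whole equal-length lists.

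In the Rd2 set the epiblast-like cells held peaks in 18 of the 38 regions, the Rd2_AFX libraries in 13 and the Rd2_ES libraries in 2. All 4 Rd2_EpiLC libraries had a peak at the starts of Myc, Mycl and Lin28a, at the outer end of Lin28b and the Trit1 end. Only 1 had one within 1 kb of the Mycn start. Rd2_AFX had 1, 2, 1, 2 and 1 of 2 libraries at the first 5 places, in that order. With each list cut to 7469 peaks, these 5 regions kept 2, 3, 2, 1 and 1 Rd2_EpiLC libraries. They kept 1, 1, 0, 2 and 1 Rd2_AFX libraries. The Mfsd2a region near Mycl was present in 3 Rd2_EpiLC and 2 Rd2_AFX libraries and in no Rd2_ES library. The Mycl body region, chr4:122998582-122999554, was in 2 of 2 Rd2_AFX libraries and in no Rd2_EpiLC library. As deposited, Lin28a's internal regions at chr4:134011383-134012451 and chr4:134016788-134017883 went the other way, with 3 Rd2_EpiLC libraries each and no Rd2_AFX library. Rd2_EpiLC lists held 7469 to 26045 peaks and the Rd2_AFX lists 10719 and 11252, and these presence counts were not tested. With each list cut to 7469 peaks, both Lin28a internal regions had a peak in only 1 Rd2_EpiLC library and in no Rd2_AFX library. The Mycl body region then stayed in 2 Rd2_AFX libraries and in no Rd2_EpiLC library. The distal Mycn region, chr12:12927118-12927779, went from 3 Rd2_EpiLC libraries to 0 and stayed in 2 Rd2_AFX libraries. Cut to 7469 peaks each, the Mycl window held 1, 0, 3 and 2 peaks in Rd2_EpiLC and 3 and 3 in Rd2_AFX, and the Lin28a window 2, 2, 1 and 1 against 1 and 1.

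Genes of the wider pathways had medians at or near that of all genes at equal length. The median difference of ES minus FS was −0.167 peaks for 22 genes of the MYC network, for 19 genes of the LIN28 and let-7 pathway and for 20 MYC targets, the same as over all genes. For ES minus EpiSC_AFX the medians were −0.25, −0.167 and −0.25 against −0.167, and for FS minus EpiSC_AFX 0, 0.167 and −0.167 against 0. None of these 61 genes passed the adjusted exact permutation test at equal length. On the deposited lists 10 of 22, 7 of 19 and 5 of 20 passed for ES minus EpiSC_AFX, where 36.7% of all genes did. In the LIN28 list, 3 of 19 genes had every ES library below every FS library, where the background was 5.21%. No MYC network gene or MYC target did. Igf2bp3, an RNA-binding let-7 target, had 3, 4 and 3 peaks in ES and 6 to 7 in FS (exact permutation p = 0.0119, adjusted p = 0.19). Arid3a, a let-7-regulated DNA-binding factor, had 2 in each ES library and 3 to 5 in FS, and Hmga1, a chromatin protein, had 0 in ES and 1 to 4 in FS. Against EpiSC_AFX, every ES library was below for 3 of 19 LIN28 list genes, 1 of 20 MYC targets and 0 of 22 MYC network genes. The background was 7.06% of genes. They again included Igf2bp3 and Arid3a. The MYC target was Cdk4, a cell-cycle kinase, with 1, 0 and 1 peaks in ES against 2 to 3. Drosha, the nuclease that cuts primary microRNA transcripts, was above, with 2, 2 and 3 peaks in ES and 1 in every EpiSC_AFX library (exact permutation p = 0.0119, adjusted p = 0.138). A separation in this direction was shown by 2.75% of genes.

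Of the let-7 loci, those of the chromosome 13 cluster (Mirlet7d, Mirlet7f-1 and Mirlet7a-1, which share their peaks) and Mirlet7e on chromosome 17 had a peak within 20 kb in all 18 first-set libraries, also at equal length. Mirlet7i had one in 2 of 3 ES libraries and in 15 of 15 others as deposited, but at equal length only the 2 ES libraries kept it. Mirlet7g had one in 1 ES library and in all 15 others as deposited, and at equal length in 1 ES, 1 FS2, 2 EpiSC_AF and 1 EpiSC_AFX2 libraries. As deposited, the pair Mirlet7c-2 and Mirlet7b on chromosome 15 had a peak in 3 FS1, 2 EpiSC_AFX1 and 1 EpiSC_AFX2 libraries. No FS2, EpiSC_AF or ES library had one. At equal length only 1 EpiSC_AFX1 library kept it. Mirlet7a-2, Mirlet7c-1 and Mirlet7f-2 had none in any library. These differences in presence were not tested.

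The genes whose window counts ran most like those of each member were found by Pearson's r over the 18 first-set libraries at equal length, as a description. Among the genes most like Mycl were Pnpla7 (r = 0.91) and Ccnl2 (0.87), and Lin28a ran most like Rps6ka3 (0.91), Izumo4 (0.89) and Ap3d1 (0.88). Values were lower for Myc, with Gm10220 (0.70), Dnajc10 (0.69) and Slc12a8 (0.69), and for Lin28b, with Nav3 (0.71), Cacna1a (0.67) and 1700028K03Rik (0.67). For Mycn, Nkx6-1 reached 1.00 and Ctu1 and Klk13 0.85, but Mycn had a count above 0 in 2 libraries only. All points share the libraries and their list quality, and these are among the highest of 11245 to 17891 genes compared.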

How the data were processed

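ATAC-seq peaks were read from 26 deposited lists, 1 per library in the broadPeak layout. Per the submitters' processing notes, Trim Galore, Bowtie, Picard and MACS2 were used with the build mm10, and versions, roles and order are not given in the sources used here. Each deposited peak carries the authors' fold enrichment (a ratio), −log10 p and −log10 q, used only to rank or filter peaks within a list. The deposited score was not used. Read counts were not used here, so depth was unknown and no counting interval is given. The 18 first-set lists have a shortest peak of 150 bp and the 8 Rd2 lists of 110 bp, so the sets were kept apart.

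Libraries were grouped by source label. FS1 and FS2 made up FS, and EpiSC_AFX1 and EpiSC_AFX2 made up EpiSC_AFX. At most 0.0746% of peaks had the same coordinates in a pair of libraries from 1 group. Gene spans came from the RefSeq table of GRCm38.p6, the assembly that mm10 names, and all 5 members matched. An overlap of 1 bp counted as presence. Window peaks (gene span and 50 kb on each side) were counted for every protein-coding gene and compared by an exact two-sided permutation test of the difference of mean counts over libraries, with Benjamini-Hochberg adjustment over all genes with a peak in the compared libraries. Regions were compared by presence and by Fisher's exact test. The permutation test was checked on simulated counts with differences larger than any of the members, so its power at the differences reported here was not checked. Equal list length was 8044 peaks for the first set and 7469 for Rd2_EpiLC and Rd2_AFX. Members are named in every comparison. Pathway genes are named, up to 3 in each direction, by the largest difference among those called or, with none called, among those whose libraries do not overlap. For likeness, the 3 genes over 1 Mb away with the highest Pearson's r are named, among genes with at least 3 different counts or as many as the member. One gene that this rule names is not reported here. Members, lists and tests were chosen with earlier results of these data known. Alternatives covered list length, rank measure, peak threshold, window, coverage, a replicate block, each library left out, and, added after seeing the data, FS1 alone and equal length without ES. Python 3.11.15, numpy 2.4.6, pandas 2.3.3, scipy 1.17.1 and matplotlib 3.10.9 were used.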

Additional observations from a re-analysis of the deposited data

Results flagged for a closer look

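Of 13 sets of member counts with 4 to 10 libraries checked for a library far from the others, 2 had one. How often chance flags counts of 0 and 1 was not estimated. Both were in Rd2_EpiLC with each list cut to its 7469 highest peaks. The Mycn window held 1 peak in replicate 2 and 0 in the other libraries of the group. The Lin28b window held 1 peak in replicate 3 and 0 in the other libraries. Each is a single peak, and the Rd2_AFX libraries held 1 peak in each of these windows at the same list length.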

How the results depend on the processing

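Depth was unknown, lists differed several-fold in length, and with 3 libraries against 6 the adjusted threshold can be passed only where a large share of all genes reaches the smallest p, so a difference that missed it is not shown to be absent. Full deposited lists turned ES minus FS to −1.17 peaks for Myc and −1 for Lin28b, and ES minus EpiSC_AFX to −1.5 for Lin28b. In the same lists ES minus EpiSC_AFX passed for Mycn (−3), Mycl (−6.17) and Lin28a (−4.33), regions held by FS and not ES numbered 1, and regions held by EpiSC_AFX and not ES numbered 8. These lists are of unequal length by construction. With only peaks of −log10 q of at least 5, ES minus EpiSC_AFX passed for Mycl at −3.17 (adjusted exact permutation p = 0.0365, as did 32.7% of genes) and turned to −0.333 for Lin28b. Covered length in place of peak number gave −0.631 kb for Mycl, FS minus EpiSC_AFX (exact permutation p = 0.00433, adjusted p = 0.379). Ranking by fold enrichment turned FS minus EpiSC_AFX for Mycl to 0.5 and gave 1 region held by FS and not ES. FS minus EpiSC_AFX for Lin28a turned to 0.167 peaks with 100 kb on each side, to 0.0707 kb as covered length and to 0.667 peaks with FS1 alone. FS1 alone also gave 3 regions held by FS and not ES. The region held by EpiSC_AFX and not ES was lost (0) with 20 kb on each side, which leaves it outside the window, and when a peak had to cover 50% of the region. The cause of the other changes was not tested.

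Leaving out each library in turn, 1 of 150 differences turned to the opposite sign and none passed. A difference of 0 could not count as turned. Myc, ES minus EpiSC_AFX, was 0 with all libraries and ranged from −0.667 to 0.333. Myc, ES minus FS, ranged from −0.333 to 0.667 and turned only without ES replicate 3. Regions held by ES and not FS ranged from 0 to 1, with the 1 at the outer end of Lin28b without ES replicate 3. Regions held by FS and not ES ranged from 0 to 2, with the 2 at Mycl without FS2 replicate 3. Mycl, ES minus EpiSC_AFX, ranged from −3.17 to −2.67. Lin28a ranged from −1.33 to −0.333 for ES minus FS and from −1.83 to −0.833 for ES minus EpiSC_AFX, the ends being without ES replicate 3 and ES replicate 2. The correlation of same-numbered deviations ranged from −0.043 to 0.04 over 45 pairs, and that of different-numbered ones from −0.05 to 0.042 over 90 pairs. No shared effect of the replicate number was thus seen. Whether same-numbered libraries were handled together cannot be told from these values. With the replicate block none of 15 differences turned and none passed (lowest adjusted exact permutation p = 0.335).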
